A study of Mus musculus with 8 samples.

Results

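Genes of the neutrophil granule programme and of early granulocyte progenitors were followed in sorted cells of the mid-gestation mouse embryo, namely Elane, Prtn3, Ctsg, Mpo, Srgn, Ms4a3, Cebpa, Cebpe, Lyz2 and Ltf. They are 10 of the 24015 genes in the count table, and they were chosen by the counts of Elane, which stood higher in hematopoietic clusters of Sl/Sl embryos than in those of wild type embryos. The difference between the genotypes in clusters is therefore described for these genes without a test. Tests are given for the difference between cell types, except for Elane, and for the difference between genotypes in endothelium.

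RNA was measured in 8 libraries of 100 cells each, made with SMARTSEQ2 from E11.5 aorta-gonad-mesonephros region with vitelline and umbilical arteries, with 2 libraries in each of 4 groups. Hematopoietic clusters, the groups of cells that bud from the wall of the dorsal aorta and hold the first hematopoietic stem cell precursors, were sorted as Ter119- VE-Cadherin+ Kit+ cells. Endothelium was sorted as Ter119- VE-Cadherin+ Kit- CD41- CD45- cells. Both cell types came from wild type (WT) embryos and from embryos homozygous for Steel (Sl/Sl), a deletion on chromosome 10 that removes Kitl, the ligand of the receptor Kit, and the Steel mice were on a C57BL/6 background. Sl/Sl embryos lack Kitl in every cell, so the genotype is not specific to the endothelium or to any other niche cell. The authors describe pools of 1 to 4 embryos of 1 genotype, 2 sorting experiments and duplicate samples. The labels do not tie a library to a pool or to a sorting experiment.

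Neutrophils store their antimicrobial proteins in granules that are filled in sequence. Primary granules form in promyelocytes and carry the serine proteases neutrophil elastase (Elane), proteinase 3 (Prtn3) and cathepsin G (Ctsg) with myeloperoxidase (Mpo), packed on the proteoglycan serglycin (Srgn). Secondary granules form later and carry lactoferrin (Ltf). Transcription of the early genes depends on C/EBP alpha (Cebpa), PU.1 (Spi1) and MYB, whereas C/EBP epsilon (Cebpe) acts in the switch to secondary granules, and Ms4a3 marks granulocyte-monocyte progenitors.

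The stretch just upstream of the transcription start is shown for the 4 members that carry most of the results below: Elane, its neighbour Prtn3, Mpo and Ms4a3. Sequences are from RefSeq (GRCm38.p6 table) and were placed on NCBIM37 (mm9), the build of the count table, by exact match. Each holds the 250 bases before the start, 5′ to 3′ on the gene's strand, and capitals mark GAGGAA, a PU.1 motif, or TTNNGNAA, a C/EBP motif, on either strand. The windows are chr10:79348807-79349056 (+) for Elane, chr10:79342162-79342411 (+) for Prtn3, chr11:87607036-87607285 (+) for Mpo and chr19:11715342-11715591 (-) for Ms4a3.
Elane: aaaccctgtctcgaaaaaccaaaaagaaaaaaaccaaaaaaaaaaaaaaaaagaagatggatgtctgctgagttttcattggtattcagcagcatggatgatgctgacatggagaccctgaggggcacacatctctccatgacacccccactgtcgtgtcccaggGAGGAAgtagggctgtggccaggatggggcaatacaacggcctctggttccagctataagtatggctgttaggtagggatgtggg
Prtn3: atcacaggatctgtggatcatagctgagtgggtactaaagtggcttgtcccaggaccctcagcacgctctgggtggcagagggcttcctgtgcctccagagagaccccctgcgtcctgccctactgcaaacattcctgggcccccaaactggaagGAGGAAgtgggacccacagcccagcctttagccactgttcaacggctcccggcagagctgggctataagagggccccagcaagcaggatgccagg
Mpo: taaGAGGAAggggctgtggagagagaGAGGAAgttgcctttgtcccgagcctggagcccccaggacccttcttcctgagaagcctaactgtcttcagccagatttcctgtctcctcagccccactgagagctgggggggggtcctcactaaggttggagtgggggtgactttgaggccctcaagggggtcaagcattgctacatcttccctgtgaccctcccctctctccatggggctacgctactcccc
Ms4a3: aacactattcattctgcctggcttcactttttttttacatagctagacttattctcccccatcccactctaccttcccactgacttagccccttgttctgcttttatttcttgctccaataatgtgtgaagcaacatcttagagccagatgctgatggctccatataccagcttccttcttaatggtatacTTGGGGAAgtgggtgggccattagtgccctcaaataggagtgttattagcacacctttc

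GAGGAA began 85 bases before the start of Elane and 95 bases before that of Prtn3, and the Mpo window held it at 247 and 224 bases before the start. The Ms4a3 window held no GAGGAA but held TTNNGNAA 59 bases before the start given by RefSeq, which lies 17 bases from the start of Ms4a3 in the count table. The MYB motif AACNG was found in either orientation at 50 and 20 bases before the start of Elane, at 104, 61 and 55 bases in Prtn3 and at 165 bases in Mpo. Of 32851 mouse promoter windows of the same length, 23.3% held GAGGAA, 36.8% held TTNNGNAA and 74.2% held AACNG. The RUNX motif TGTGGT was in none of these 4 windows and in 14.0% of all windows. These matches describe the letters of the windows only. Of the 10 members, 9 had an entry in the RefSeq table, and Cebpe had none.

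Library totals ran from 8933236 to 13428214 counts, with 12844 to 14309 genes detected, and levels are given as normalised CPM (counts divided by the scaled library total and multiplied by 1000000). Among the sort markers, Kit followed the gates, and Ptprc was low in endothelium, the only cell type gated on CD45. Cdh5 was lower in clusters although both gates were VE-Cadherin+, and Itga2b did not separate the cell types. Cdh5, which encodes VE-Cadherin, was at 453 to 655 CPM in endothelium. In clusters it was lower and uneven, at 218 and 11.99 CPM in WT and 149 and 46.1 CPM in Sl/Sl. Ptprc, which encodes CD45, was at 106 to 304 CPM in clusters against 0.606 to 1.27 CPM in endothelium, and Kit was at 225 to 379 CPM against 64.1 to 84.7 CPM. Itga2b, which encodes CD41, was at 8.95 to 22.0 CPM in clusters and at 4.21 to 10.7 CPM in endothelium, where both Sl/Sl libraries lay above Sl/Sl clusters replicate 1 (cell type edgeR adjusted p = 0.280). Kitl, the deleted gene, had 1250 and 923 counts in WT endothelium and 6 and 2 counts in Sl/Sl endothelium. In clusters it had 110 and 0 counts in WT and 1 and 3 counts in Sl/Sl, so that WT clusters replicate 2 could not be told from Sl/Sl by Kitl.

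Elane was low in 6 of the 8 libraries and high in both libraries of Sl/Sl clusters. It had 11 and 30 counts in WT clusters, 1202 and 676 counts in Sl/Sl clusters, 8 and 11 counts in WT endothelium and 13 and 12 counts in Sl/Sl endothelium. In CPM the WT cluster libraries were at 0.949 and 2.34, which overlaps the endothelium libraries (0.636 to 1.43), and the Sl/Sl cluster libraries were at 98.7 and 47.3. The 2 Sl/Sl cluster libraries thus stood above all others, with a gap between each other as well. The group means were 1.64 ± 0.981 CPM in WT clusters and 73.0 ± 36.4 CPM in Sl/Sl clusters (SD, n = 2). The fitted log2 fold change between them was 5.46 (SE 0.96), a 44.1-fold higher level in Sl/Sl, and 423 of the 13908 genes tested had a fold change as high or higher. Without any 1 of the 4 cluster libraries the log2 fold change lay between 4.84 and 6.24.

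Prtn3, whose protein is a close relative of elastase, was abundant in clusters of both genotypes. It had 1489 and 3595 counts in WT clusters and 3052 and 3286 counts in Sl/Sl clusters, or 128 and 280 CPM against 251 and 230 CPM. The Sl/Sl values fell between the 2 WT values, and the log2 fold change was 0.23 (SE 0.40). In endothelium Prtn3 had 46 and 37 counts in WT and 26 and 13 counts in Sl/Sl. Ctsg, the third serine protease, was found in WT clusters replicate 2 with 43 counts and had 0, 0 and 0 counts in the other cluster libraries. A list of 8 mast cell markers summed to 2006 CPM in that library and to 986 CPM in Sl/Sl clusters replicate 2, which had 0 counts of Ctsg. The list summed to 334 CPM in WT clusters replicate 1 and to 57.2 CPM in Sl/Sl clusters replicate 1. Cpa3 made up most of each sum, at 309 and 1876 CPM in WT and 36.0 and 920 CPM in Sl/Sl clusters. Of the other listed genes, Cma1 had 0 and 209 counts in WT and 1 and 0 counts in Sl/Sl clusters. Ms4a2 had 0 and 396 counts against 1 and 107 counts, and Fcer1a 0 and 63 counts against 0 and 300 counts. The part of mast cell RNA in the Ctsg count was not tested. Ctsg passed the filter on low counts in 1 library and was left out of the fit.

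Mpo, the peroxidase that makes hypochlorous acid, had 1619 and 5535 counts in WT clusters and 7192 and 7838 counts in Sl/Sl clusters. At 140 and 431 CPM against 591 and 548 CPM, the 2 genotypes did not overlap. The log2 fold change was 1.00 (SE 0.57), and it was 0.40 without WT clusters replicate 1 and 2.02 without WT clusters replicate 2. Srgn, which holds the granule proteases, had 3993 and 11691 counts in WT clusters and 6100 and 6499 counts in Sl/Sl clusters. As for Prtn3, the Sl/Sl values of 501 and 455 CPM lay between the WT values of 345 and 910 CPM. Its log2 fold change was -0.39 (SE 0.52), and it turned to 0.47 without WT clusters replicate 2.

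Ms4a3 followed Elane most closely among the abundant members. It had 113 and 108 counts in WT clusters and 1623 and 702 counts in Sl/Sl clusters. The WT libraries were close to each other at 9.75 and 8.41 CPM, and the Sl/Sl libraries at 133 and 49.1 CPM were ordered as for Elane. The log2 fold change was 3.33 (SE 0.77), a 10.03-fold higher level in Sl/Sl clusters, with 2.44 to 3.88 when a cluster library was left out. In the 4 endothelium libraries Ms4a3 had 22, 9, 10 and 11 counts.

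The 2 C/EBP factors were rare transcripts in every group. Cebpe had 8 and 12 counts in WT clusters and 89 and 98 counts in Sl/Sl clusters, at 0.690 and 0.934 CPM against 7.31 and 6.85 CPM, and 3 counts in all of the endothelium. Its log2 fold change in clusters was 3.11 (SE 2.35), an 8.61-fold higher level in Sl/Sl. Cebpa had 0 and 16 counts in WT clusters and 5 and 142 counts in Sl/Sl clusters, so that 1 Sl/Sl library held nearly all of its counts. The summed counts of Cebpa, 147 in Sl/Sl and 16 in WT clusters, had a ratio of 8.48 (exact 95% interval 5.05 to 15.2, counting error only), while the fitted log2 fold change turned to -0.59 without Sl/Sl clusters replicate 2.

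Lyz2, the lysozyme of macrophages and neutrophils, was abundant in clusters of both genotypes. It had 7909 and 1675 counts in WT clusters and 6891 and 4207 counts in Sl/Sl clusters, with a log2 fold change of 0.08 (SE 0.76). The 2 WT libraries, at 682 and 130 CPM, were farther apart than the 2 genotypes. Reads of Lyz2 and its close copy Lyz1 may be hard to tell apart, and Lyz1 was at 0.863 CPM at most. Ltf, the secondary granule gene, had 0 and 0 counts in WT clusters and 8 and 1 counts in Sl/Sl clusters, which is at least 2.77-fold higher when WT is set at a floor of 3 counts over the group. Ltf reached the count minimum in no library and was left out of the fit.

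In clusters the Sl/Sl libraries both lay above the WT libraries for 5 of the 10 members (Elane, Mpo, Ms4a3, Cebpe and the untested Ltf), the genotypes overlapped for the other 5, and no member was lower in both Sl/Sl libraries. Among all 13908 genes tested, 16.4% had both Sl/Sl cluster libraries above the WT libraries and 16.2% had both below. A fitted level at least 8-fold higher in Sl/Sl clusters was found for Elane, Ms4a3, Cebpe and Cebpa, and for 5.57% of all genes tested. Since Elane was chosen for this difference, nothing is read from these counts. No gene passed an adjusted p of 0.1 between genotypes in clusters in the edgeR fit (percent called, 0), while 587 genes had an unadjusted p under 0.05. The smallest edgeR adjusted p over all genes was 0.109, just over the threshold, and with DESeq2 175 genes passed. The authors, who used DESeq2 with a false discovery rate under 0.1, did call genes between these clusters. In these bulk libraries a greater number of cells of one kind and more RNA in each such cell cannot be told apart.

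**Figure D1:**
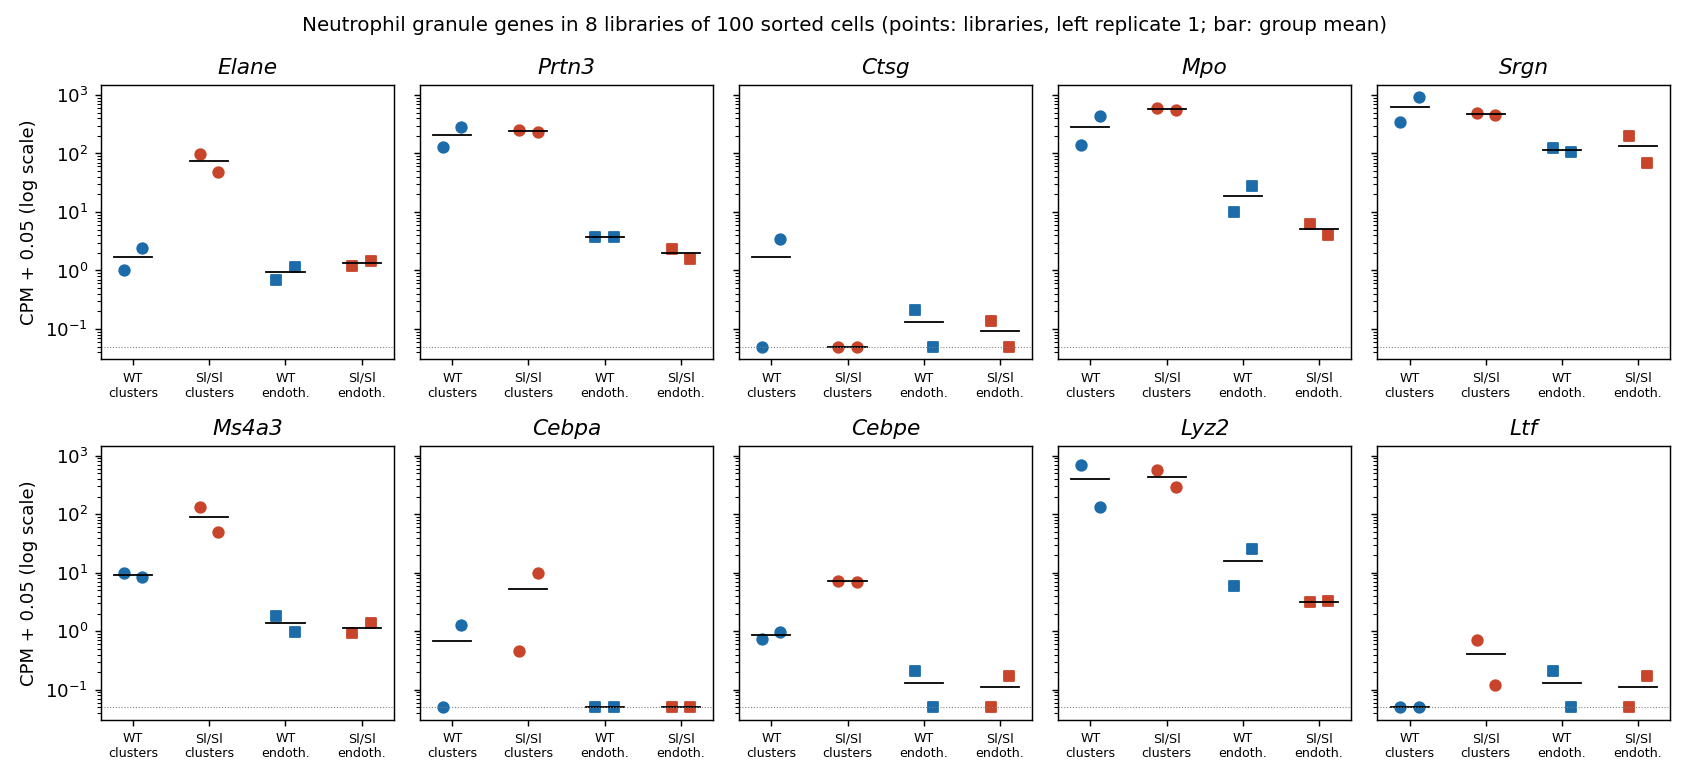
Each panel plots 1 of the 10 granule genes, with CPM plus 0.05 on a log axis, for the 2 libraries of each group (points; bar, group mean). Elane is at 98.7 and 47.3 CPM in Sl/Sl clusters and at most 2.34 CPM elsewhere, whereas Prtn3 and Lyz2 are high in clusters of both genotypes.

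Per base of transcript, Elane came after Srgn, Lyz2, Prtn3, Mpo and Ms4a3 in clusters of both genotypes, and its distance to Ms4a3 differed. In RPKM, which divides counts by the kilobases of listed exon and by the unscaled library total (in units of 1000000 counts), the means in WT clusters were 694 for Srgn, 411 for Lyz2, 219 for Prtn3 and 116 for Mpo, and each of these overlapped its neighbour in the order. Ms4a3 followed at 9.44 ± 1.33 RPKM and Elane at 1.85 ± 1.05 RPKM (SD, n = 2), without overlap. In Sl/Sl clusters Srgn was at 529 RPKM, Lyz2 at 420 RPKM, Prtn3 at 257 RPKM and Mpo at 232 RPKM, with overlap between Srgn and Lyz2. Ms4a3 at 92.7 ± 58.1 RPKM and Elane at 81.9 ± 38.4 RPKM came next and did overlap. Cebpe at 5.95 RPKM, Cebpa at 2.08 RPKM and Ltf at 0.135 RPKM were the lowest members detected there. In endothelium Srgn was the highest member, with a mean of 118 RPKM in WT and 137 RPKM in Sl/Sl, and no other member exceeded a group mean of 14.0 RPKM.

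Ratios taken within a library do not depend on how the libraries were scaled. In WT clusters there were 0.739 (95% interval 0.368 to 1.33) and 0.834 (0.562 to 1.19) counts of Elane for every 100 counts of Prtn3. In Sl/Sl clusters there were 39.4 (36.8 to 42.1) and 20.6 (18.9 to 22.4). The intervals are exact and cover counting error only. The 2 WT values were close to each other, and the 2 Sl/Sl values were higher and farther apart, as for the Elane counts that chose these genes.

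The other members changed their proportion to Prtn3 by smaller steps. Ms4a3 had 7.59 and 3.00 counts for every 100 of Prtn3 in WT clusters and 53.2 and 21.4 in Sl/Sl clusters. Cebpe had 0.537 and 0.334 counts in WT and 2.92 and 2.98 counts in Sl/Sl, so that its 2 Sl/Sl libraries were alike. Mpo had 109 and 154 counts in WT and 236 and 239 counts in Sl/Sl, again with Sl/Sl libraries that were alike. For every 100 counts of Ms4a3, Elane had 9.73 and 27.8 counts in WT clusters and 74.1 and 96.3 counts in Sl/Sl clusters. In endothelium the ratio of Elane to Prtn3 rested on 13 to 46 counts of Prtn3 and ran from 17.4 to 92.3 counts for every 100, with intervals as wide as 38.5 to 219.

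**Figure D2:**
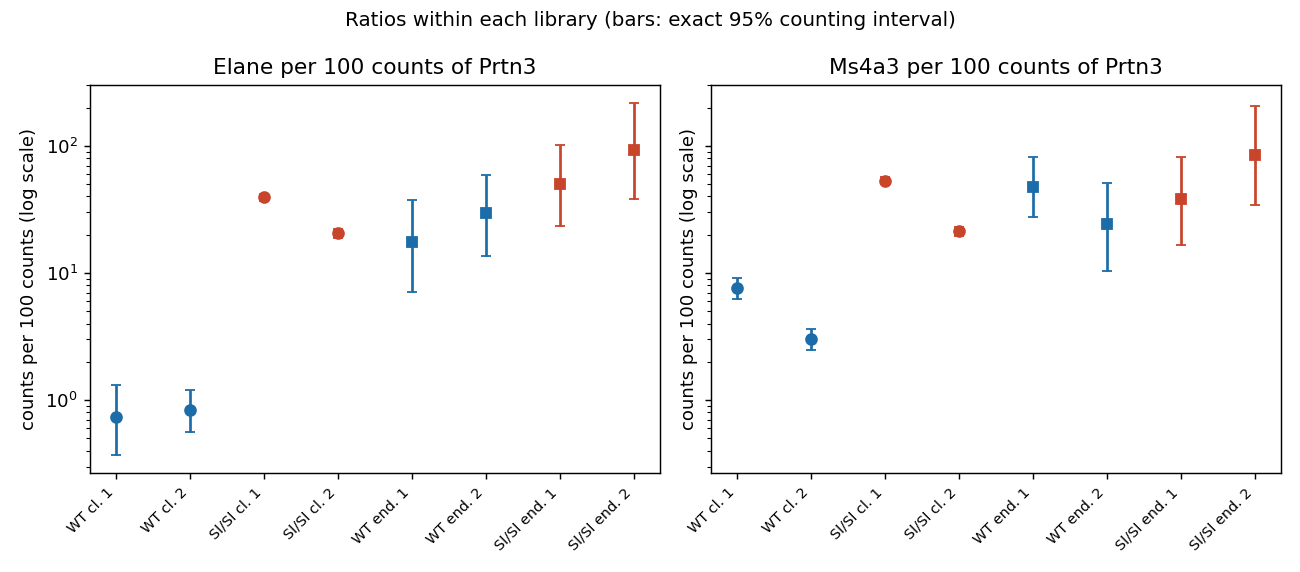
Points give the counts of one granule gene for every 100 counts of another in each of the 8 libraries, on a log axis, with the exact 95% counting interval as a bar (cl., clusters; end., endothelium). Elane per 100 counts of Prtn3 is below 1 in both WT cluster libraries and at 39.4 and 20.6 in the Sl/Sl cluster libraries, and the endothelium intervals are wide.

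Elane lies on chromosome 10 at chr10:79349057-79350961 on the plus strand (mm9) with 5 exons listed, and Prtn3 lies on the same strand at chr10:79342412-79345917, ending 3140 bases before Elane. No exon of a member overlapped an exon of another gene in the table. Of the 10 genes within 50 kb of Elane, 7 were tested in the fit, and their log2 fold changes between Sl/Sl and WT clusters ran from -1.09 to 0.23. The highest of these was Prtn3, and the lowest was BC005764 with an SE of 1.87. Med16, a Mediator subunit, was at -0.67 (SE 0.96), and Ptbp1, a splicing regulator, was at -0.06 (SE 0.31). R3hdm4 was at -0.01 (SE 0.46), Arid3a, a DNA-binding factor, at -0.26 (SE 0.71), and E130317F20Rik at -0.66 (SE 2.10). Cfd, the adjacent gene downstream and the gene of complement factor D, had 7 and 5 counts in WT clusters and 1 and 10 counts in Sl/Sl clusters and was not tested. Elane is 20.13 Mb from Kitl, and 4 members (Elane, Prtn3, Lyz2 and Srgn) are on chromosome 10, the chromosome of the Steel deletion.

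**Figure D3:**
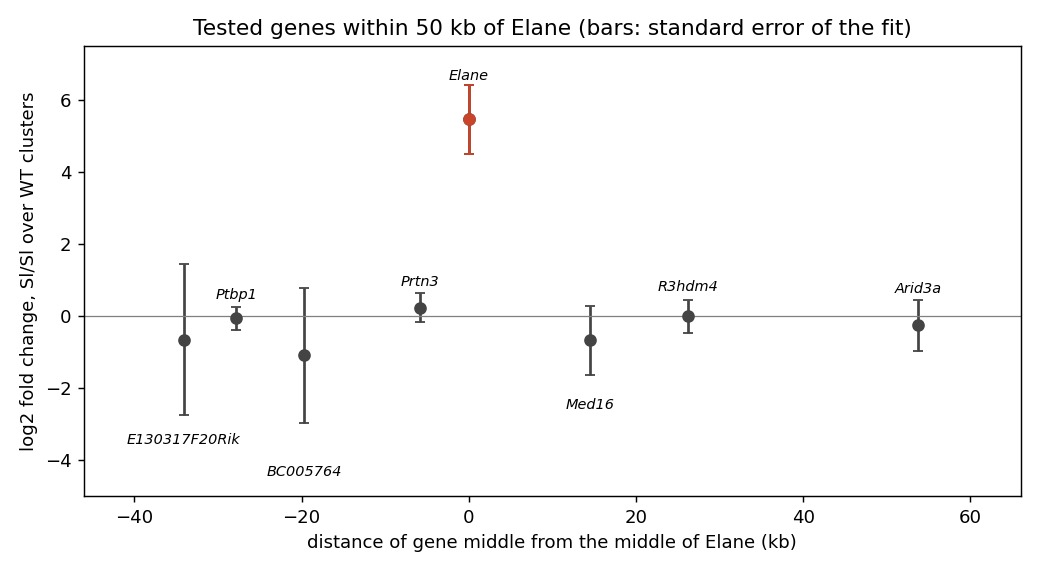
The 7 tested genes within 50 kb of Elane and Elane itself are placed by the distance of their middle from that of Elane (kb), against the fitted log2 fold change of Sl/Sl over WT clusters (bars, SE). Elane is at 5.46, and its neighbours lie between -1.09 and 0.23.

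The second question was which members separate hematopoietic clusters from endothelium. The comparison averaged over genotypes, and 16.6% of the 13908 genes tested passed an adjusted p of 0.1 in edgeR's quasi-likelihood test, 8.12% being lower in endothelium and 8.48% higher. Prtn3, Mpo, Lyz2, Ms4a3 and Srgn were lower in endothelium, and each of them had reached the count minimum in all 8 libraries. Prtn3 had the largest of these 5 differences, 82.6-fold (log2 fold change -6.37, SE 0.36, edgeR adjusted p = 5.96e-05). It was at 128 to 280 CPM in clusters and at 1.55 to 3.74 CPM in endothelium.

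Lyz2 was 59.8-fold lower in endothelium (log2 fold change -5.90, SE 0.68, edgeR adjusted p = 0.00103). Mpo was 40.9-fold lower (log2 fold change -5.35, SE 0.49, edgeR adjusted p = 0.000344), at 4.05 to 28.2 CPM in endothelium. Ms4a3 was 23.7-fold lower (log2 fold change -4.57, SE 0.59, edgeR adjusted p = 0.00188). All 5 genes remained past the threshold when any 1 of the 8 libraries was left out. The fold was also fitted for each genotype, and the difference between the genotypes was not tested. In WT libraries alone the log2 fold change was -5.78 (SE 0.50) for Prtn3, -4.71 (SE 0.90) for Lyz2 and -3.91 (SE 0.64) for Mpo. For Ms4a3 it was -2.75 (SE 0.77, edgeR adjusted p = 0.0824). In Sl/Sl libraries alone it was -6.95 (SE 0.53) for Prtn3, -7.09 (SE 1.01) for Lyz2, -6.79 (SE 0.74) for Mpo and -6.38 (SE 0.90) for Ms4a3.

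Srgn showed the smallest difference of these genes, 4.398-fold (log2 fold change -2.14, SE 0.38, edgeR adjusted p = 0.00907), and was at 124, 105, 202 and 68.5 CPM in endothelium. It did not pass in Sl/Sl libraries alone (edgeR adjusted p = 0.160). The endothelial gate removed Kit+, CD41+ and CD45+ cells, and Ptprc was at most 1.27 CPM there.

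Cebpe and Cebpa reached the count minimum only in cluster libraries. Cebpe had 207 counts in clusters against 3 in endothelium, a ratio of 57.3 (exact 95% interval 19.3 to 280), and Cebpa had 163 counts against 0, at least 45.1-fold higher in clusters with a floor of 3 counts over the group. Without Sl/Sl clusters replicate 2, which held 142 of the Cebpa counts, the bound was 8.08-fold with 21 counts, and Cebpa was at 0 in WT clusters replicate 1 as in endothelium. Neither gene passed across genes (edgeR adjusted p = 0.128 for Cebpe and 0.143 for Cebpa). Ctsg had 43 counts against 3 and Ltf 9 counts against 3, with ratios of 11.9 (3.81 to 59.96) and 2.49 (0.622 to 14.3). All 43 counts of Ctsg came from WT clusters replicate 2, and without that library clusters held 0 counts against 3. For Ltf the interval includes equal levels. Fitted without the filter on low counts, both had an edgeR adjusted p of 1.00.

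Elane itself is given for this comparison without a test. It was 10.3-fold lower in endothelium on average (log2 fold change -3.37, SE 0.63), but the fold depended on genotype by construction of the choice. With WT libraries alone the log2 fold change was -0.91, and with Sl/Sl libraries alone it was -5.82. In all, 6 members (Prtn3, Mpo, Srgn, Ms4a3, Cebpe and Lyz2) had every cluster library above every endothelium library, as had 9.57% of all genes tested. Of these, Cebpe reached the count minimum only in cluster libraries, so its place is not read as a result. Elane was not among the 6 because its WT cluster libraries overlapped the endothelium.

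**Figure D4:**
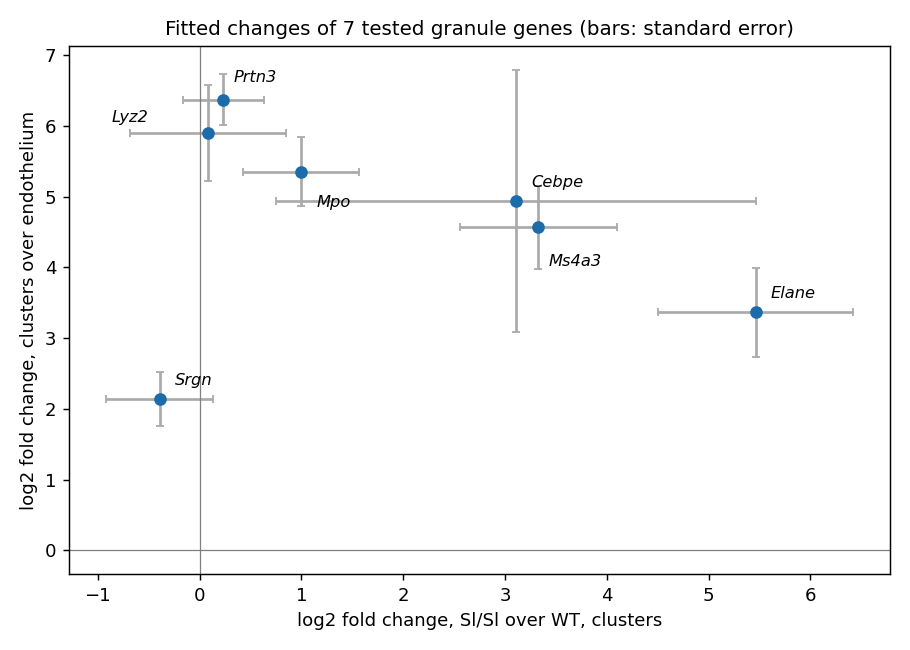
For 7 granule genes the fitted log2 fold change of Sl/Sl over WT clusters (horizontal) is set beside that of clusters over endothelium (vertical), with SE bars; both use the same cluster libraries. Prtn3, Lyz2 and Mpo are far higher in clusters than in endothelium and lie within 1.00 of 0 between genotypes, whereas Elane is at 5.46 between genotypes. Cebpe reached the count minimum only in clusters, so its vertical position is not read as a result.

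The third comparison asked whether the genotype changed granule transcripts in endothelium, where the Kitl deletion removes a transcript that WT cells make. No gene of the 13908 tested passed an adjusted p of 0.1 (percent called, 0; 580 genes had an unadjusted p under 0.05), and so no member did. Lyz2, Mpo and Prtn3, 3 members, were lower in both Sl/Sl libraries than in either WT library, as were 14.9% of all genes tested, and 1 member, Elane, was higher in both, as were 13.5% of all genes tested. Mpo had 123 and 279 counts in WT and 70 and 34 counts in Sl/Sl endothelium, with a log2 fold change of -1.89 (SE 0.61, edgeR unadjusted p = 0.0127, adjusted p = 1). Lyz2 had 75 and 249 counts against 35 and 27 counts, with a log2 fold change of -2.30 (SE 0.85, edgeR unadjusted p = 0.0241, adjusted p = 1).

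For both genes WT endothelium replicate 2 held most of the WT counts. Without it the log2 fold change was -0.92 for Mpo and -0.91 for Lyz2. With DESeq2 in place of edgeR, Mpo had an adjusted p of 0.0989, and without the filter on low counts edgeR gave 0.000324 for Mpo and 3.91e-06 for Lyz2. Prtn3 was at 3.66 and 3.74 CPM in WT and 2.28 and 1.55 CPM in Sl/Sl, and its log2 fold change was -0.93 (SE 0.45, edgeR adjusted p = 1). Elane, at 0.636 and 1.11 CPM against 1.14 and 1.43 CPM, had a log2 fold change of 0.55 (SE 0.85, edgeR adjusted p = 1).

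Srgn and Ms4a3 overlapped between the genotypes in endothelium. Srgn was at 124 and 105 CPM in WT and at 202 and 68.5 CPM in Sl/Sl, with a log2 fold change of 0.24 (SE 0.52, edgeR adjusted p = 1). Ms4a3 was at -0.30 (SE 0.77, edgeR adjusted p = 1). Cebpa, Cebpe, Ctsg and Ltf were at or under 3 counts in every endothelium library and allow no comparison there.

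Other genes of granule assembly and of the granulocyte programme were taken from lists. Several of them reached the count minimum in fewer endothelium libraries than the filter asks for. They entered the fit only through the clusters, so for these the counts are given in place of a fold and a test. The numbers of genes lower in endothelium include them and are not read as a result for them. Among 5 genes that process granule proteases or inhibit them, 2 did not pass and 3 were lower in endothelium, against 8.12% of all genes tested. These were Ctsc, the dipeptidyl peptidase that activates granule proteases, at 2.82-fold (edgeR adjusted p = 0.0422), Serpinb1a, an inhibitor of elastase, at 22.9-fold (edgeR adjusted p = 0.00129), and Cst7, an inhibitor of Ctsc. Cst7 had 205 to 794 counts in clusters and 0 to 5 counts in endothelium, where it did not reach the minimum. Cd63, a granule membrane protein, had a log2 fold change of -0.56 (edgeR adjusted p = 0.120).

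Between genotypes in clusters these 5 genes had a median log2 fold change of -0.39, against 0.03 over all genes tested. Slpi, a secreted inhibitor of neutrophil elastase, departed from the rest of its list and is named here after its values were seen. It had 1 and 1 counts in WT clusters, 154 and 228 counts in Sl/Sl clusters, 7 and 2 counts in WT endothelium and 1 and 2 counts in Sl/Sl endothelium. The summed cluster counts, 382 in Sl/Sl and 2 in WT, had a ratio of 176 (exact 95% interval 48.5 to 1460, counting error only). Like Elane, Slpi was high in both Sl/Sl cluster libraries and near the floor in the other 6.

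Of 10 further genes of primary granules and granulocyte-monocyte progenitors, 8 were tested. Of these, 6 were lower in endothelium, against 8.12% of all genes tested, and 2 did not pass. Among the 6, 2 reached the count minimum in no endothelium library, and Nkg7 reached it in 1. Plac8 was 57.1-fold lower (edgeR adjusted p = 0.00215) and Igsf6 49.3-fold lower (edgeR adjusted p = 0.00128). Nkg7 had 327 to 3007 counts in clusters and 1 to 16 counts in endothelium. Clec12a, an inhibitory myeloid receptor, had 367 to 580 counts in clusters and 2 to 7 counts in endothelium. In clusters the 8 genes had a median log2 fold change of 1.03 between genotypes, and 3 of the 8 were higher in both Sl/Sl libraries, against 16.4% of all genes tested. Igsf6 was at 17.4 and 42.1 CPM in WT and at 75.8 and 46.6 CPM in Sl/Sl clusters. Plac8, the most abundant of them, was at 331 and 780 CPM in WT and within that range in Sl/Sl, at 339 and 436 CPM.

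Secondary and tertiary granule genes were mostly too low to test. Of 13 listed genes, 12 were in the table and 4 were tested. Of these, S100a8 and S100a9, the calprotectin subunits, were lower in endothelium, as were 8.12% of all genes tested. S100a8 was 32.4-fold and S100a9 25.2-fold lower (edgeR adjusted p = 0.0152 and 0.0331). In clusters S100a8 had 4005 and 83 counts in WT and 1181 and 2850 counts in Sl/Sl, so that the WT libraries spanned the Sl/Sl values. Pglyrp1, a peptidoglycan-binding granule protein, was at 45.4 and 20.1 CPM in WT and 52.9 and 21.5 CPM in Sl/Sl clusters.

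Olfm4, which marks a subset of neutrophils, had 1 and 2 counts in WT clusters and 161 and 365 counts in Sl/Sl clusters. It had 2 to 5 counts in each endothelium library. The summed cluster counts, 526 and 3, had a ratio of 162 (exact 95% interval 55.1 to 787, counting error only).

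Of the 5 genes of the NADPH oxidase, whose product feeds the reaction of Mpo, 3 reached the count minimum in no endothelium library. All 5 were lower in endothelium in the fit, against 8.12% of all genes tested. Cybb had 176 to 1065 counts in clusters and 0 to 2 counts in endothelium, and Ncf1 had 206 to 1472 counts in clusters and 1 to 7 counts in endothelium. Cyba was 1.65-fold lower (edgeR adjusted p = 0.0725). In clusters their median log2 fold change between genotypes was -0.96, and 3 of the 5 were lower in both Sl/Sl libraries than in either WT library, against 16.2% of all genes tested. Cybb had 887 and 1065 counts in WT and 176 and 485 counts in Sl/Sl clusters.

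Of 8 transcription factors of the granulocyte lineage, 5 were lower in endothelium, 1 was higher and 2 did not pass. Among all genes tested, 8.12% were lower and 8.48% were higher. Of the 5 lower factors, 1 reached the count minimum in no endothelium library. Runx1 was 65.9-fold lower (edgeR adjusted p = 5.96e-05), Myb 51.6-fold lower (edgeR adjusted p = 6.44e-05) and Spi1, the gene of PU.1, 26.2-fold lower (edgeR adjusted p = 0.00154). Klf4, which is also a factor of quiescent endothelium, was 3.20-fold higher in endothelium (edgeR adjusted p = 0.0537). Between genotypes in clusters Spi1 had 426 and 783 counts in WT and 2058 and 842 counts in Sl/Sl. In CPM these were 36.8 and 61.0 against 169 and 58.9, so that the genotypes overlapped. Myb was at 199 and 145 CPM in WT and at 155 and 125 CPM in Sl/Sl clusters.

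Of 7 myeloid growth factor and Fc receptors, 5 were lower in endothelium, against 8.12% of all genes tested, and 2 did not pass. Of the 5, 3 reached the count minimum in no endothelium library. Fcgr3, the gene of CD16, was 112.2-fold lower (edgeR adjusted p = 0.000415), whereas Csf2ra had a log2 fold change of -0.76 (edgeR adjusted p = 0.533). Csf2rb had 185 to 971 counts in clusters and 2 to 5 counts in endothelium, and Csf1r had 263 to 529 counts and 0 to 5 counts. In clusters the 7 receptors had a median log2 fold change of -0.12 between genotypes. Fcgr3 was at 122 and 587 CPM in WT and at 392 and 290 CPM in Sl/Sl clusters. No gene of these 6 lists passed between genotypes in endothelium.

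Likeness to Elane was measured over the 8 libraries as the root mean square difference of log2 CPM after centring each gene on its own mean, with smaller values for more similar profiles. The 10 nearest genes were Taf6l (0.60), Fbxl13 (0.66), Lair1 (0.68), Klrb1b (0.70), Cldn4 (0.71), Cecr6 (0.73), Olfm4 (0.74), Syngr4 (0.80), Rbakdn (0.82) and Hrh4 (0.85). All had at most 8 counts in any library other than those of Sl/Sl clusters. Taf6l had 216 and 42 counts in Sl/Sl clusters, and Lair1, an inhibitory immune receptor, had 169 and 83 counts. Among the members Cebpe was 23rd nearest, Ms4a3 35th, Cebpa 186th, Mpo 399th and Srgn 619th, and Prtn3 was 3361st and Lyz2 4994th of the genes tested.

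The profile of Mpo had other neighbours. The 5 nearest genes were Eya2 (0.52), Tnfaip8l2 (0.56), Plcb2 (0.58), Spi1 (0.59) and Lst1 (0.63), and Prtn3 was 17th. These rankings describe 8 libraries of 4 groups, in which the genotype difference in clusters had already chosen Elane.

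Markers of other cell types were summed in the cluster libraries beside the Elane result. The 10 endothelial markers summed to 1122 and 411 CPM in WT and 2732 and 719 CPM in Sl/Sl clusters, against 5818 to 6539 CPM in endothelium, and none of them was at 0. Between genotypes in clusters 9 of the 10 had a positive log2 fold change, with a median of 0.98 against 0.03 over all genes tested. Only 1 of the 10 was higher in both Sl/Sl libraries, against 16.4% of all genes tested. The 11 macrophage markers summed to 110 and 132 CPM in WT and 299 and 105 CPM in Sl/Sl clusters. Of the 10 macrophage markers tested, 8 had a positive log2 fold change between genotypes in clusters, with a median of 1.36. The 8 hematopoietic markers summed to 1760 and 1782 CPM in WT and were lower in both Sl/Sl libraries, at 1557 and 1400 CPM. In endothelium they summed to 1203 to 1312 CPM. Cd34 led these sums, at 342 to 640 CPM in clusters, where the genotypes overlapped, and at 1059 to 1158 CPM in endothelium. In clusters 3 of the 8 markers were lower in both Sl/Sl libraries, against 16.2% of all genes tested. Their median log2 fold change between genotypes was -0.33.

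The lists of rarer cell types varied most between libraries of the same genotype. The 8 mast cell markers summed to 334 and 2006 CPM in WT and 57.2 and 986 CPM in Sl/Sl clusters, with Tpsb2 and Mcpt4 at 0 in all of them. The 6 megakaryocyte markers summed to 81.3 and 1058 CPM in WT and 209 and 1561 CPM in Sl/Sl, the 8 erythroid markers to 68.3 and 32.2 CPM and 266 and 24.4 CPM, and the 6 mesenchymal markers to 596 and 812 CPM and 24.97 and 3403 CPM. Only the hematopoietic sums separated the genotypes, and their part in the level of Elane was not tested.

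**Figure D5:**
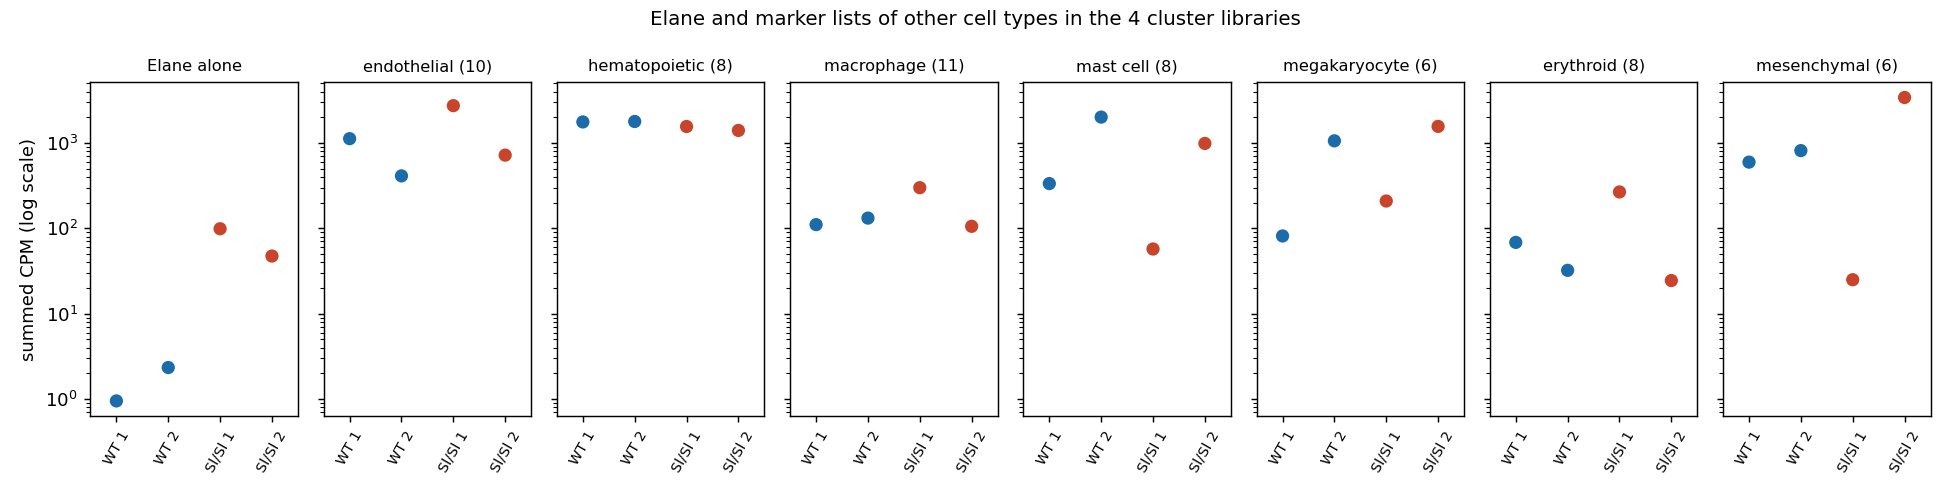
Elane and the summed CPM of 7 marker lists (number of genes in brackets) are plotted for the 4 cluster libraries on a shared log axis (blue, WT; red, Sl/Sl). Elane and the hematopoietic sums separate the genotypes: Elane is higher and the hematopoietic sums are lower in both Sl/Sl libraries. The other 6 sums overlap between genotypes.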

How the data were processed

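SMARTSEQ2 libraries of sorted cells were sequenced by the authors, who aligned reads to mm9 with STAR 2.4.2a and deposited raw counts per gene from featureCounts (Subread 1.4.5), as per the labels and the submitters' processing notes, which also name DESeq2 1.12.4. The gene annotation, the strand setting and the handling of reads with several matches are not given in the sources used here. Totals of 8933236 to 13428214 counts set the counting precision, and intervals and floors of 3 counts cover counting error only.

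Counts were normalised by TMM and fitted with edgeR 4.0.16 (R 4.3.3) by the quasi-likelihood F test on all 8 libraries with 1 mean for each of the 4 groups. The filterByExpr filter (minimum count 10) kept 13908 of 24015 genes, and p-values were adjusted by Benjamini-Hochberg over all genes tested, with a threshold of 0.1. Contrasts were the mean of endothelium minus the mean of clusters, and Sl/Sl minus WT within each cell type. Members and lists were chosen with earlier results of these data known, so the genotype contrast in clusters carries no p for any member, nor does Elane in the cell type contrast. In each list up to 4 genes of highest mean CPM were named, and Slpi was added after its values were seen. A gene that this rule names is not reported here. Another 27 gene names in the table are written as dates, and none is named here. CPM used TMM-scaled library sizes, RPKM the unscaled totals and the exon length in the table, and likeness to Elane used log2 CPM with a prior count of 2. Exact intervals were computed with SciPy 1.17.1.

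The labels number the replicates, which the authors call biological replicates, and p-values measure the spread between these libraries. On simulated counts of 13908 genes, log2 shifts of 2 were found in 45.67% of cases and shifts of 4 in 69.33% for the cell type contrast, where 18.77% of calls were false. For genotype in endothelium the shares were 21.33% and 57.33%, with 18.03% false. Both false shares were above the level that the threshold of 0.1 sets. The simulation shifted far fewer genes than passed in the cell type contrast, so its shares need not hold for the data. Alternatives were DESeq2 1.42.0, RLE size factors, 2 other filters, a threshold of 0.05, a replicate block, each cell type or genotype alone, and each library left out. Leaving libraries out of the summed counts of Cebpa, Cebpe, Ctsg and Ltf was added after seeing the data.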

Additional observations from a re-analysis of the deposited data

Results flagged for a closer look

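Mpo had fold changes of opposite sign between the genotypes in the 2 cell types, without overlap of the libraries in either. In clusters both Sl/Sl libraries (591 and 548 CPM) lay above both WT libraries (140 and 431 CPM), as for 16.4% of all genes tested, with a log2 fold change of 1.00 (SE 0.57) that was 0.40 without WT clusters replicate 1. In endothelium both Sl/Sl libraries (6.13 and 4.05 CPM) lay below both WT libraries (9.78 and 28.2 CPM), as for 14.9% of all genes tested, with a log2 fold change of -1.89 (SE 0.61, edgeR adjusted p = 1). The difference between the 2 cell types was not tested.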

How the results depend on the processing

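The 5 granule genes other than Elane that passed between cell types also passed without any 1 library (5 in each case), and the log2 fold changes of all 8 fitted members kept their direction then. Over all genes, 2310 passed between cell types, against 1563 to 2087 without 1 library, 1488 at an adjusted p of 0.05, 3614 with DESeq2, 1146 in WT libraries alone and 393 in Sl/Sl libraries alone, where fewer samples enter the contrast. In endothelium 0 genes passed between genotypes, against 178 with DESeq2, 65 without the filter, 2 in endothelium libraries alone and 0 without any 1 library. Granule genes other than Elane numbered 0 there, 1 with DESeq2 (Mpo), 2 without the filter (Mpo and Lyz2) and 0 without any 1 library. In clusters 0 genes passed, against 175 with DESeq2, 253 without the filter, 5 with at least 10 counts in every library of a cell type, 8 with the replicate block and 6 to 76 without 1 library. The cause of these differences was not tested. Where 1 library of a group was left out, the lone library was assumed to vary like the other groups.

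Without 1 library, log2 fold changes in clusters ran from -0.22 (without WT replicate 1) to 0.90 for Prtn3, from -0.93 to 0.47 (without WT replicate 2) for Srgn, from -0.67 (without WT replicate 2) to 1.72 for Lyz2, which was also at -0.46 without Sl/Sl replicate 1, and from -0.59 (without Sl/Sl replicate 2) to 8.91 for Cebpa. In endothelium they ran from -0.66 to 0.25 (without WT replicate 1) for Ms4a3 and from -0.74 (without Sl/Sl replicate 1) to 0.81 for Srgn. DESeq2 gave Cebpe and Cebpa adjusted p-values of 0.0151 and 0.0831 between cell types, but both reached the count minimum only in clusters, and these are not read as calls.

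The labels give replicate numbers no shared batch, and the numbers were not used to pair samples. Deviations of same-numbered libraries correlated at 0.16 between WT and Sl/Sl clusters and at -0.002 between WT and Sl/Sl endothelium. In clusters of both genotypes the mast cell, megakaryocyte and mesenchymal sums were higher in the library numbered 2 and the endothelial and erythroid sums in that numbered 1, and whether the numbers mark a shared batch there is not known. With the replicate block the log2 fold change of Elane in clusters was 5.57 and that of Mpo 1.18, and the block changed no call of a granule gene. With a coefficient of variation of 0.82 between replicates and 2 libraries in a group, a change that did not pass is not shown to be absent.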
